A study of Mus musculus with 4 samples.

Results

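The 10 genes described here make, or respond to, prostaglandins and leukotrienes, the lipid mediators that cells form from arachidonic acid. They were chosen by symbol as eicosanoid enzymes and receptors of microglia, the macrophages of brain tissue, and all 10 were found among the 49993 genes with a count. Bulk RNA-seq libraries came from CD11b+ microglia of 10-month-old mouse brain, sorted with magnetic beads, 2 libraries for each genotype. AD libraries had the genotype APP/PS1+ asrij+/+, and AD/KO libraries the genotype APP/PS1+ asrij-/-, in which the deletion was constitutive and so not limited to microglia. Every library thus carried APP/PS1, a transgenic model of Alzheimer's disease in which amyloid builds up in the brain, and no group without APP/PS1 is part of the comparison. The labels do not say whether a library came from 1 mouse or a pool, nor that replicates came from separate mice, so that p-values measure only the spread between these libraries. The comparison asks how the deletion relates to the activation of microglia in this model.

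Eicosanoid synthesis starts when cytosolic phospholipase A2, encoded by Pla2g4a, frees arachidonic acid from membranes. Cyclooxygenases (Ptgs1 and Ptgs2) turn it into prostaglandin H2, from which dedicated synthases make prostaglandin D2 (Hpgds), thromboxane (Tbxas1) and prostaglandin E2 (to which Ptges3 has been linked). The other branch begins with Alox5, the 5-lipoxygenase, which needs its membrane partner Alox5ap to make leukotriene A4, and Ltc4s joins glutathione to that product. Ptger4 encodes EP4, a prostaglandin E2 receptor that raises cAMP. In the brain, Ptgs1 is known as the cyclooxygenase of resting microglia, and Ptgs2 as an inducible enzyme that is also made by neurons.

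Promoters are shown for 4 members on which the results turn: Ptgs1 and Pla2g4a, whose levels ran with those of microglial markers, and Alox5 and Ptger4, which were lower in both AD/KO libraries. Each sequence is the 250 bases before a RefSeq transcription start (build GRCm38.p6), written 5′ to 3′ on the gene's strand, and capitals mark a match to the motifs named after them.
Ptgs1, chr2:36230176-36230425, plus strand: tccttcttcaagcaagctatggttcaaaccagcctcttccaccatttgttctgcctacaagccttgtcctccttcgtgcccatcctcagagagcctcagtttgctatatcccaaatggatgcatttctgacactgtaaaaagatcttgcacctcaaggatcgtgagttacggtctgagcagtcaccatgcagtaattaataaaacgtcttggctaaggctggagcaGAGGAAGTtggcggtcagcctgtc
Pla2g4a, chr1:149961291-149961540, minus strand: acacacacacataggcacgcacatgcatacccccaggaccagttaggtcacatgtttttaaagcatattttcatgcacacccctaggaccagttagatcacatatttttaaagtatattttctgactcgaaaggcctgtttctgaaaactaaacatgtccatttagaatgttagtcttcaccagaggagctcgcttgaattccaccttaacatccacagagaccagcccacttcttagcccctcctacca
Alox5, chr6:116461179-116461428, minus strand: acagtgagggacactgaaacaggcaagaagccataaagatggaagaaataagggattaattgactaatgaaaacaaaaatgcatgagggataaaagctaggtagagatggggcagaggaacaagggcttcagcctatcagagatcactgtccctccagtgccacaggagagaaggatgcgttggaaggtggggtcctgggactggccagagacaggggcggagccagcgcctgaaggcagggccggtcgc
Ptger4, chr15:5244188-5244437, minus strand: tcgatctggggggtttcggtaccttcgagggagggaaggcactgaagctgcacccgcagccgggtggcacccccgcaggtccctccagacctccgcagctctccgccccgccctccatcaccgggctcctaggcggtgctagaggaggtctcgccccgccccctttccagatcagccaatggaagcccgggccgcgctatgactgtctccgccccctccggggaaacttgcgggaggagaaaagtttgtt
The search covered both strands for the core of PU.1, a factor of macrophages (GAGGAAGT), the cAMP response element (TGACGTCA and the shorter TGACGT inside it), NF-kB and the TATA box (TATAAA). The PU.1 core is in 2.44% of 32841 promoters of this length. It was found in the windows of Ptgs1, 24 bases before the start used, and Hpgds, 49 bases before the start used. Both windows lie inside the span of their gene, which begins at 36216742 for Ptgs1 and, on the minus strand, at 65144981 for Hpgds. The Hpgds window, 65144731 to 65144980, also overlaps exons of Hpgds. Neither site is thus upstream of the whole gene. The other motifs are in 1.55% (TGACGTCA), 6.47% (TGACGT), 7.25% (NF-kB) and 12.4% (TATAAA) of the promoters. None of the 5 was found in the windows of Alox5 and Ptger4 or in that of Pla2g4a shown. Promoters of 9 of the 10 members were matched, and Alox5ap was not. Pla2g4a has another start in the table, whose window holds a TATA box on the other strand.

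The libraries held from 13102622 to 19810076 counts. Ociad1, the mouse gene of asrij, was at 50.2 and 63.4 CPM (counts scaled to library size, as processed here) in AD and at 38.9 and 32.1 CPM in AD/KO, lower but not lost (log2 fold change -0.68, edgeR quasi-likelihood adjusted p = 0.680). That value was -0.43 without AD replicate 2 and 0.04 with scaling to the homeostatic markers, a scaling that moved the median of all genes from -0.05 to 0.73. AD and AD/KO therefore stand for the libraries labelled so, and each direction is a difference between labels. The libraries also differed in makeup. The summed level of 12 homeostatic microglia markers was 19403 and 13240 CPM in AD and 19793 and 5723 CPM in AD/KO, and 11 of the 12 had a log2 fold change under 0. All 8 neuron and all 7 astrocyte markers were higher on average in AD/KO, with AD/KO replicate 2 highest for both lists. AD replicate 2 stood apart in 10 neutrophil markers, at 4737 CPM against 381 to 576 CPM in the other libraries, and in Xist, with 1391 reads against 3 to 15. Fewer cells of a type and less RNA per cell cannot be told apart in such bulk libraries.

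**Figure D1:**
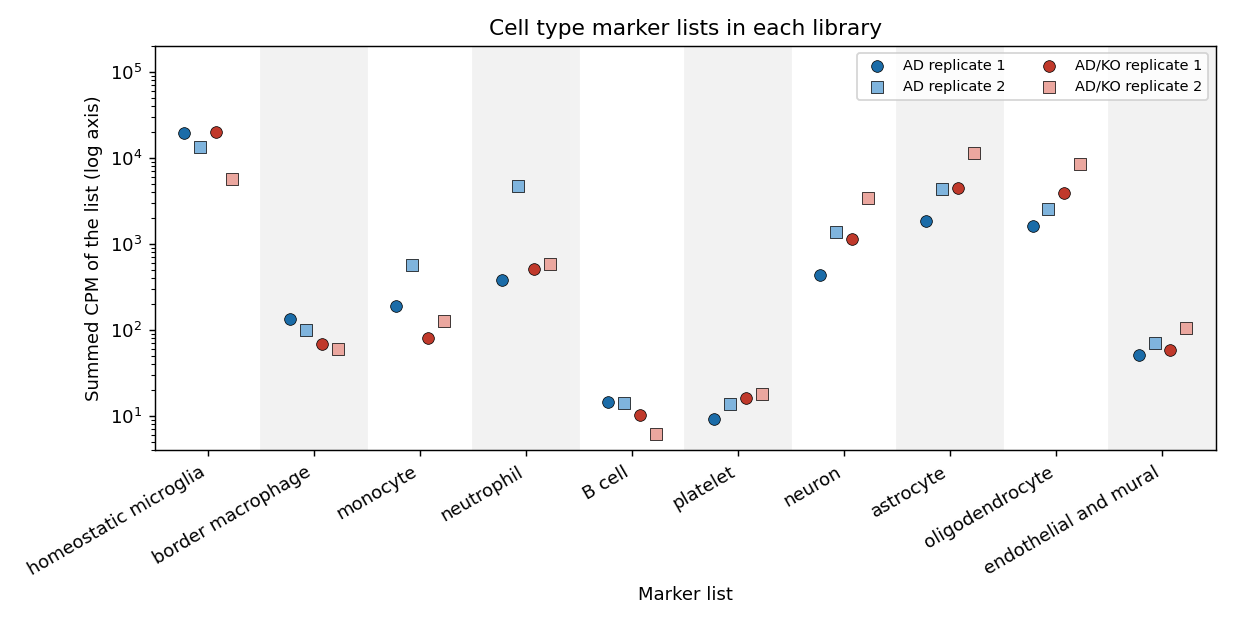
Summed CPM of cell type marker lists (log axis) in the 4 libraries, each point a library, with AD in blue and AD/KO in red and replicate 2 as squares. AD/KO replicate 2 is lowest for the homeostatic microglia list (5723 CPM) and highest for the neuron list (3424 CPM), and AD replicate 2 is highest for the neutrophil list (4737 CPM).

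Across the 10 members, 9 had a lower fitted level in AD/KO and 1, Ptgs2, a higher one. The median log2 fold change of the members was -0.61, beside -0.05 for the 21439 genes tested, of which 52.8% were lower. Alox5 and Ptger4 separated the groups with each AD/KO value under each AD value, as 21.7% of all genes did, and Ptgs2 separated them the other way, as 20.3% did. No member passed an adjusted p of 0.05 in edgeR's quasi-likelihood test, nor did any other gene (0% of those tested). Unadjusted, 2 members had a p under 0.05, both of them lower (Alox5 and Ptger4), against 5% of all genes in either direction and 2.3% lower. DESeq2 called 90 genes (0.42%), of which 0 were members, and gave 1 member (Alox5) an unadjusted p under 0.05, against 10.8% of all genes. The direction of the list rested on AD/KO replicate 2, without which the median was 0.0065 and 5 of the 10 members were lower, whereas without AD/KO replicate 1 the median was -1.66.

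**Figure D2:**
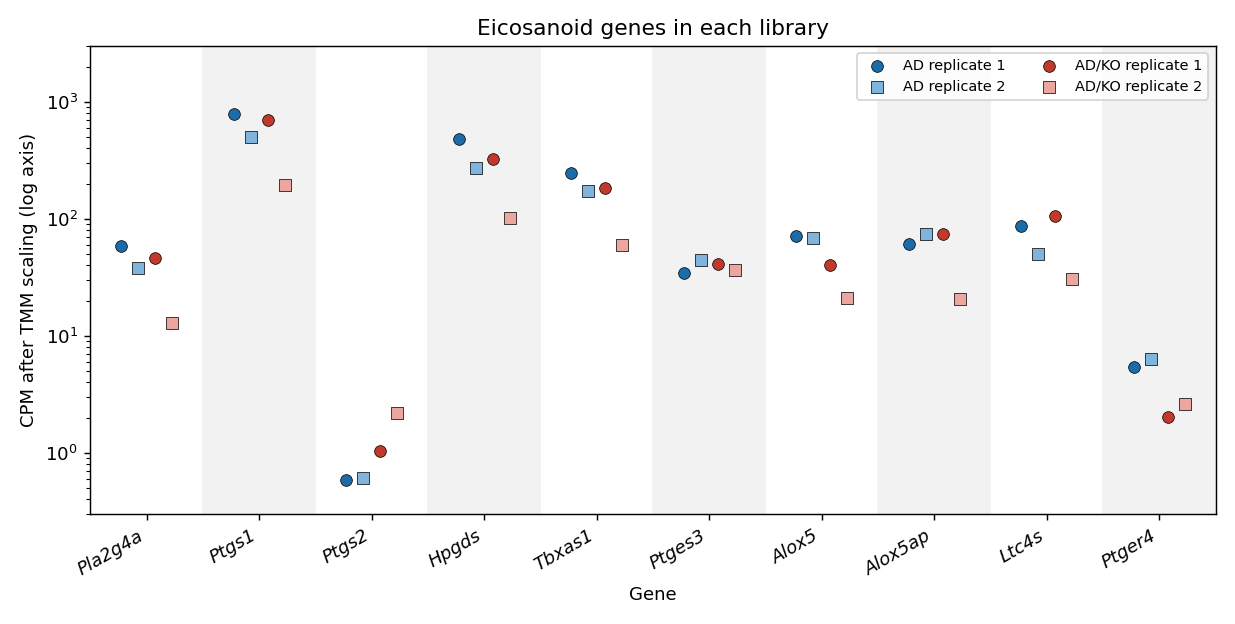
CPM after scaling (log axis) of the 10 members in each library, with AD in blue and AD/KO in red and replicate 2 as squares. For 7 of the 10 genes the lowest point is AD/KO replicate 2, as for 42.4% of all genes tested, whereas Alox5 and Ptger4 have both red points below both blue points and Ptgs2 both above.

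Pla2g4a, at the head of the pathway, was lower on average in AD/KO with overlapping groups. Pla2g4a (gene ID 18783, chromosome 1, 149829618 to 149961290) was at 58.4 and 37.9 CPM in AD and at 46.6 and 12.9 CPM in AD/KO. AD/KO replicate 1 lay between the AD libraries and replicate 2 below both. The means were 48.2 ± 14.5 and 29.7 ± 23.9 CPM (SD, n = 2 each), with a log2 fold change of -0.70 (SE 0.66, edgeR quasi-likelihood adjusted p = 0.718). Without AD/KO replicate 2 it was -0.05.

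Ptgs1 and Ptgs2 encode the same enzymatic step and stood at opposite ends of the members' levels. Ptgs1 (gene ID 19224, chromosome 2, 36216742 to 36258593) was at 784 and 502 CPM in AD and at 705 and 193 CPM in AD/KO. Per kilobase of exon it was the highest member in all 4 libraries, with a mean of 166 CPM per kilobase in AD and 116 in AD/KO. Its log2 fold change was -0.52 (SE 0.73, edgeR quasi-likelihood adjusted p = 0.789), with overlapping groups, and it was 0.13 without AD/KO replicate 2.

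Ptgs2 (gene ID 19225, chromosome 1, 150100031 to 150108234) had 8 and 10 reads in AD and 20 and 40 reads in AD/KO, or 0.581, 0.615, 1.04 and 2.17 CPM. Both AD/KO libraries were above both AD libraries, but at a level per kilobase of 0.130 CPM in AD and 0.351 CPM in AD/KO, far under that of Ptgs1. The log2 fold change was 1.41 (SE 0.71, 95% interval -0.41 to 3.24, edgeR quasi-likelihood adjusted p = 0.680). Without AD/KO replicate 2 it was 0.79, and with the neuron and astrocyte level as a covariate it was 0.75. The neuron markers, of a cell type that also makes Ptgs2, summed to 431 and 1365 CPM in AD and 1127 and 3424 CPM in AD/KO, and their part in the Ptgs2 difference was not tested.

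The prostaglandin D2 and thromboxane synthases had the same order of libraries as Ptgs1, highest in AD replicate 1 and lowest in AD/KO replicate 2. Hpgds (gene ID 54486, chromosome 6, 65117293 to 65144981) was at 478 and 274 CPM in AD and at 323 and 102 CPM in AD/KO. Tbxas1 (gene ID 21391, chromosome 6, 38864159 to 39084590) was at 245 and 173 CPM in AD and at 184 and 59.4 CPM in AD/KO. In both genes AD/KO replicate 1 lay between the AD libraries and replicate 2 was lowest, so that the groups overlapped. The log2 fold changes were -0.82 (SE 0.67) for Hpgds and -0.78 (SE 0.61) for Tbxas1, with edgeR quasi-likelihood adjusted p of 0.696 and 0.689. Without AD/KO replicate 2 they were -0.22 and -0.19. Transcripts of Tbxas1 share stretches of up to 146 bases at 95% identity or more with 73 other genes, which makes its count less certain. The 146 bases are shared with Gm42962, which overlaps Tbxas1 on the opposite strand. Hpgds shares such stretches of up to 121 bases with 5 other genes. Mast cells also make Hpgds and Ltc4s, and platelets Ptgs1 and Tbxas1. The 5 mast cell markers summed to at most 0.369 CPM in any library, with all 5 at 0 reads in AD/KO replicate 2, and the 5 platelet markers to 9.22 and 13.8 CPM in AD and 16.2 and 17.8 CPM in AD/KO.

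Ptges3, a co-chaperone of Hsp90 also described as a prostaglandin E synthase, was the steadiest member. Ptges3 (gene ID 56351, chromosome 10, 128058982 to 128077254) was at 34.3 and 44.6 CPM in AD and at 41.1 and 36.4 CPM in AD/KO. The highest library was 1.3-fold above the lowest, against 3.11-fold to 4.68-fold in the other members. The log2 fold change was -0.03 (SE 0.29, 95% interval -0.78 to 0.73, edgeR quasi-likelihood adjusted p = 0.975), and its sign changed with the scaling. The pseudogene Ptges3-ps, identical over 480 bases, had 123 to 348 reads, and with its reads added the log2 fold change was 0.094.

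In the leukotriene branch Alox5 differed most. Alox5 (gene ID 11689, chromosome 6, 116410071 to 116461178) was at 71.6 and 69.0 CPM in AD and at 40.1 and 21.1 CPM in AD/KO. Each AD/KO library was under each AD library, the latter 1.04-fold apart, and the means were 70.3 ± 1.79 and 30.6 ± 13.5 CPM (SD, n = 2 each). The log2 fold change was -1.20 (SE 0.40, 95% interval -2.22 to -0.18), with an unadjusted p of 0.0299 and an adjusted p of 0.680 in edgeR's quasi-likelihood test. It ranged from -1.67 to -0.81 with 1 library left out. Since the groups did not overlap, leaving a library out could hardly change its sign. It was -0.64 with scaling to the homeostatic markers, which moved the median of all genes to 0.73. Neutrophils also make Alox5, and their markers summed to 381 and 4737 CPM in AD and to 505 and 576 CPM in AD/KO. Leaving AD replicate 2 out gave a log2 fold change of -1.16. That library also stood apart in Xist, and the part of neutrophils in the Alox5 difference was not tested.

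Alox5ap and Ltc4s, small membrane proteins of the same family, did not share the pattern of Alox5. Alox5ap (gene ID 11690, chromosome 5, 149265004 to 149288153) was at 60.6 and 74.3 CPM in AD and at 73.7 and 20.5 CPM in AD/KO. Ltc4s (gene ID 17001, chromosome 11, 50236461 to 50238532) was at 87.0 and 50.5 CPM in AD and at 107 and 30.5 CPM in AD/KO. AD/KO replicate 1 was the highest library for Ltc4s and level with AD replicate 2 for Alox5ap, while AD/KO replicate 2 was the lowest for both. The log2 fold changes were -0.52 (SE 0.63) and 0.00 (SE 0.66, 95% interval -1.72 to 1.71), with edgeR quasi-likelihood adjusted p of 0.766 and 0.998. Without AD/KO replicate 2 they were 0.13 and 0.63. Antisense genes cover 13.3% of the exon length of Alox5ap (Gm19719) and 26.4% of that of Ltc4s (Gm26542), and whether strand was used in counting is not stated.

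The receptor gene Ptger4 had the largest fitted decrease among the members. Ptger4 (gene ID 19219, chromosome 15, 5233399 to 5244187) had 75 and 103 reads in AD and 39 and 48 reads in AD/KO, or 5.44, 6.33, 2.03 and 2.60 CPM. The groups did not overlap, and each AD library was above each AD/KO library by more than the difference within either group. The log2 fold change was -1.34 (SE 0.48, 95% interval -2.59 to -0.09), with an unadjusted p of 0.0398 and an adjusted p of 0.680 in edgeR's quasi-likelihood test. It ranged from -1.53 to -1.10 with 1 library left out and was -0.46 with scaling to the homeostatic markers. The pseudogene Gm15937 lies on the other strand within Ptger4, covers 15.3% of its exon length and had 17 to 33 reads. Markers of monocytes and border macrophages, which also express Ptger4, were above AD/KO in each AD library. Their sums were 188 and 565 CPM against 80.4 and 126 CPM for 6 monocyte markers, and 133 and 100 CPM against 69.1 and 59.5 CPM for 7 border macrophage markers. All 6 and 6 of the 7 were lower in AD/KO, and their part in the Ptger4 difference was not tested.

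**Figure D3:**
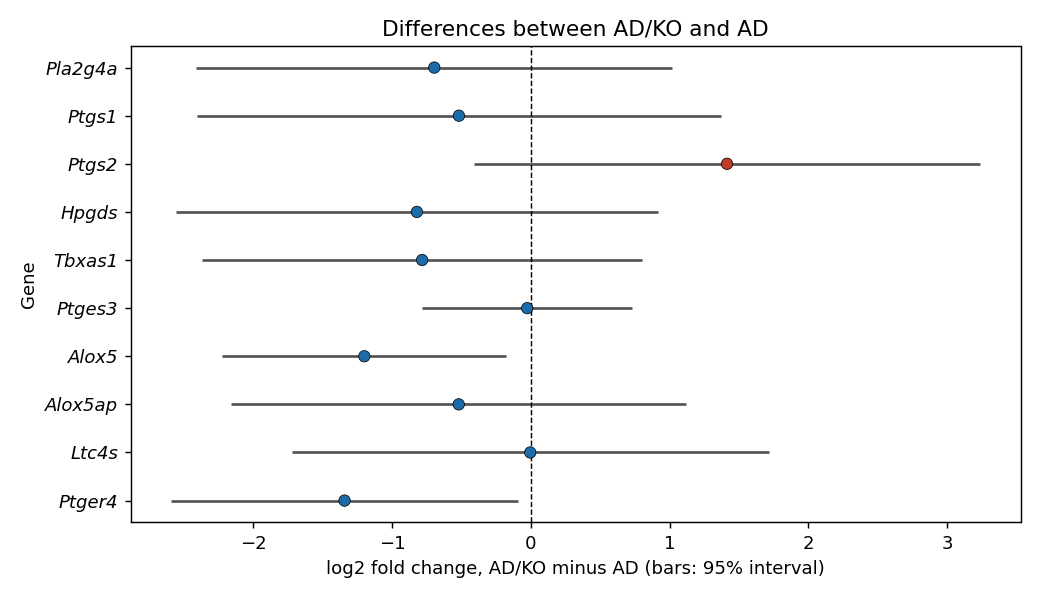
Log2 fold change of each member between AD/KO and AD from the edgeR fit (points) with its 95% interval (bars), lower in blue and higher in red. The intervals of Alox5 (-2.22 to -0.18) and Ptger4 (-2.59 to -0.09) do not reach 0, before adjustment over all genes, and the others do.

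The members' order per kilobase of exon was similar in the 4 libraries. Ptgs1 was first in each, Ltc4s was in rank 2 or 3, Hpgds in rank 3 or 4, and Pla2g4a in rank 8 throughout. Ptger4 and Ptgs2 held ranks 9 and 10, exchanging places in AD/KO replicate 2 alone. Alox5ap moved from rank 2 in AD replicate 2 to rank 5 in AD/KO replicate 2, and Ptges3 from rank 7 in AD replicate 1 to rank 3 in AD/KO replicate 2. Hpgds, at 74.4 and 42.6 CPM per kilobase in AD, and its neighbour Alox5ap, at 42.7 and 52.3, did not differ beyond their spread over libraries, whereas the 2 AD values of Ptgs1 (202 and 129) lay above those of Ltc4s (85.8 and 49.8). The AD values of Pla2g4a (9.14 and 5.93), Ptger4 (0.819 and 0.952) and Ptgs2 (0.127 and 0.134) did not overlap either.

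Of the 10 members, 6 were nearest in shape to the homeostatic microglia markers among 12 marker lists, by the root mean square difference of centred log2 levels over the 4 libraries. These were Ptgs1 (a difference of 0.10), Pla2g4a (0.17), Tbxas1 (0.20), Ltc4s (0.21), Hpgds (0.22) and Alox5ap (0.31). Alox5 was nearest to the B cell list (0.22) and Ptger4 to the border macrophage list (0.33). Ptgs2 was nearest to the endothelial and mural list (0.29) and Ptges3 to the platelet list (0.33). The B cell and platelet lists summed to at most 14.5 and 17.8 CPM, and 4 points set each of these likenesses.

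Set against the reads of the homeostatic microglia markers in the same library, the AD/KO libraries lay within 1.01-fold to 1.12-fold of each other for the 6 members nearest to those markers, against 3.10-fold to 3.66-fold in CPM. The AD libraries lay within 1.03-fold to 1.80-fold, against 1.23-fold to 1.75-fold in CPM, and those of Alox5ap were farther apart than in CPM (1.80-fold against 1.23-fold). These members were singled out by that nearness, so their closeness is a description. Tbxas1 had 12.6 and 13.1 reads per 1000 marker reads in AD and 9.29 and 10.4 in AD/KO, so that the libraries of AD/KO, 3.10-fold apart in CPM, were 1.12-fold apart on this scale. Hpgds had 24.6 and 20.7 in AD and 16.3 and 17.8 in AD/KO. Pla2g4a had 3.01 and 2.86 in AD and 2.35 and 2.25 in AD/KO. The AD/KO mean was 76.4% of the AD mean for Tbxas1, 75.4% for Hpgds and 78.3% for Pla2g4a, and the groups did not overlap in these 3 genes.

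Ptgs1 had 40.4 and 37.9 reads per 1000 marker reads in AD and 35.6 and 33.7 in AD/KO, a smaller distance between the groups. Alox5 had 3.69 and 5.21 in AD and 2.03 and 3.68 in AD/KO, where AD replicate 1 and AD/KO replicate 2 all but met. Ltc4s went the other way, with 4.49 and 3.81 in AD and 5.38 and 5.33 in AD/KO. On this scale 5 of the 10 members were lower in both AD/KO libraries, against 7.85% of all genes, and 2 (Ltc4s and Ptgs2) were higher in both, against 6.63%. Of the lower ones, Ptgs1, Pla2g4a, Hpgds and Tbxas1 had been singled out by nearness to these same markers. The share over all genes takes in genes that do not run with microglial markers. No share was computed for genes that do, so the 2 shares are not a like comparison. Alox5ap, with 3.12 and 5.61 in AD and 3.72 and 3.57 in AD/KO, did not separate the groups. Its highest value was in AD replicate 2, the library with the most neutrophil marker reads, whose part was not tested. Ptger4 no longer separated the groups, at 0.281 and 0.478 in AD and 0.103 and 0.455 in AD/KO. When edgeR was scaled to these markers, the adjusted p of the members ran from 0.797 (Ptgs2) to 0.975 (Ptgs1) in the quasi-likelihood test, and 4.73% of all genes had an unadjusted p under 0.05.

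These separations depended on the marker used as the reference. With each of the 12 markers alone, Hpgds, Tbxas1 and Pla2g4a were each lower in both AD/KO libraries for 8 markers, Ptgs1 for 5 and Alox5 for 4, while Ptgs1 was higher in both for 1 marker. Ltc4s was higher in both for 11 of the 12. No share over all genes was computed for single markers, so whether such counts are unusual cannot be told. The markers themselves differed between the groups to unequal degrees, with log2 fold changes from -1.34 (Fcrls) to 0.08 (Tmem119). Whether a microglial cell had less of an enzyme or more of a marker was not tested.

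**Figure D4:**
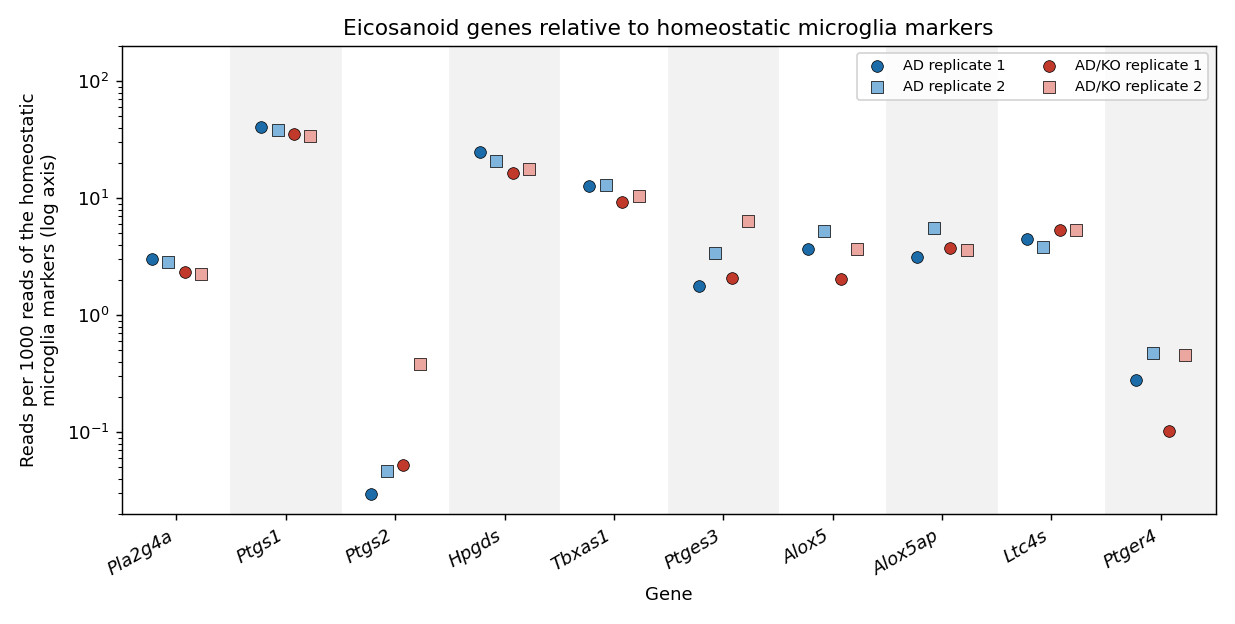
Reads of each member per 1000 reads of the 12 homeostatic microglia markers in the same library (log axis), with AD in blue and AD/KO in red and replicate 2 as squares. Hpgds, Tbxas1 and Pla2g4a have close points within each group and lower AD/KO points (Tbxas1 9.29 and 10.4 against 12.6 and 13.1), and Ltc4s has higher AD/KO points.

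The other genes of the pathway, picked by function, gave a mixed picture. Of 50 such genes 38 were tested, 22 lower and 16 higher in AD/KO, with a median log2 fold change of -0.17. In edgeR's main quasi-likelihood fit and in DESeq2, 0 passed an adjusted or an unadjusted p of 0.05. With the neuron and astrocyte level as a covariate in edgeR, 8 of the 38 had an unadjusted p under 0.05, beside 1813 of all 21439 genes, and 0 passed after adjustment. The median rested on the AD libraries, since it was 0.06 without AD replicate 1 and 0.14 without AD replicate 2. Both AD/KO libraries were below both AD libraries in 7 of the 38 and above them in 7, beside 21.7% and 20.3% of all genes. A mean of at least 5 CPM was reached by 23 of the tested genes.

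Among the other genes of arachidonate release, 5 of 8 were higher in AD/KO. Mgll, the monoacylglycerol lipase that frees arachidonic acid from an endocannabinoid, was at 81.3 and 108 CPM in AD and at 140 and 214 CPM in AD/KO. Astrocytes and neurons also express Mgll, and the astrocyte markers summed to 1831 and 4299 CPM in AD and to 4461 and 11436 CPM in AD/KO; their part in the difference was not tested. The log2 fold change of Mgll was 0.91 (SE 0.37, edgeR quasi-likelihood adjusted p = 0.680). With the neuron and astrocyte level as a covariate it was 0.42. Dagla, a diacylglycerol lipase of neurons, was at 98.8 and 77.6 CPM in AD and at 112 and 136 CPM in AD/KO. The log2 fold change of Dagla was 0.49, and 0.53 with that covariate. The Dagla homologue Daglb, the form known from microglia, was at 270 and 179 CPM in AD and at 256 and 103 CPM in AD/KO. The lowest value was in AD/KO replicate 2, as for the microglia-like members. The calcium-independent phospholipase Pla2g6 had a log2 fold change of 0.29 (95% interval -0.43 to 0.997) and the secreted Pla2g12a one of 0.32 (-0.80 to 1.44).

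Among the other genes of prostaglandin synthesis 6 of 7 were higher in AD/KO, with a median log2 fold change of 0.55. Of the 7, 0 passed in edgeR or DESeq2. The 5 members of that class went mostly the other way, 4 lower and 1 higher, with a median of -0.52. Without AD/KO replicate 2 the number of these other genes higher was 4 of 7. With the neuron and astrocyte level as a covariate it was 3, with Ptges2 at -0.10 and Ptgds at -0.30. The summed astrocyte, neuron and oligodendrocyte markers were also higher on average in AD/KO, and their part in these values was not tested. The 7 genes included Ptgds, the lipocalin-type D synthase of glia and meninges, at 27.6 and 66.7 CPM in AD and 51.3 and 87.8 CPM in AD/KO. Cbr1, a carbonyl reductase of prostaglandins, was at 12.05 and 16.1 CPM in AD and 19.6 and 21.7 CPM in AD/KO, and Prxl2b, a prostaglandin F synthase, had a log2 fold change of 0.91. The groups did not overlap for Cbr1 and Prxl2b and did for Ptgds. Ptges2 had a log2 fold change of 0.27, and the aldose reductase Akr1b3, the lower gene of the 7, one of -0.54. Hpgd, which inactivates prostaglandins, was at 85.4 and 60.7 CPM in AD and at 99.6 and 31.9 CPM in AD/KO, again lowest in AD/KO replicate 2. Ptgr2, the next enzyme of that breakdown, had a log2 fold change of 0.33, and the exporter Abcc4 one of -0.20.

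Among receptors, Ptger1 was at 22.9 and 11.1 CPM in AD and 15.3 and 5.64 CPM in AD/KO, and the cysteinyl leukotriene receptor Cysltr1 at 44.3 and 24.6 CPM in AD and 30.9 and 10.9 CPM in AD/KO. Both had overlapping groups, with log2 fold changes of -0.70 and -0.72. The leukotriene B4 receptor Ltb4r1 and the lipoxin and formyl peptide receptor Fpr2 had their highest values in AD replicate 2, the library with the most neutrophil marker reads. Ltb4r1 was at 13.5 CPM there and at 1.98 to 3.15 CPM in the other libraries, and Fpr2 at 14.0 CPM against 1.52 to 3.15 CPM. Their log2 fold changes of -1.60 and -1.69 became 0.40 and 0.72 without AD replicate 2, and the part of neutrophils in these values was not tested.

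AD replicate 2 was also the highest library for Lta4h and Cyp4f18. Lta4h, which makes leukotriene B4, was at 44.5 and 78.3 CPM in AD and at 40.8 and 41.0 CPM in AD/KO, and its log2 fold change of -0.59 became -0.05 without AD replicate 2. Cyp4f18, which degrades leukotriene B4 in neutrophils, was at 20.5 CPM in AD replicate 2 and 4.64 to 9.06 CPM in the others. Its log2 fold change went from -0.98 to 0.14 without that library. The part of neutrophils in the values of Lta4h and Cyp4f18 was not tested. Alox15 was at 23.2 and 21.5 CPM in AD and at 14.4 and 8.90 CPM in AD/KO, so that this lipoxygenase, like Alox5, was lower in both AD/KO libraries (log2 fold change -0.94, SE 0.38, edgeR quasi-likelihood adjusted p = 0.680). Its value without AD replicate 2 was -0.93. Ggt5, which trims leukotriene C4, had a log2 fold change of -0.42, the exporter Abcc1 one of -0.37 and the epidermal-type lipoxygenase Aloxe3 one of 0.71, all with overlapping groups.

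**Figure D5:**
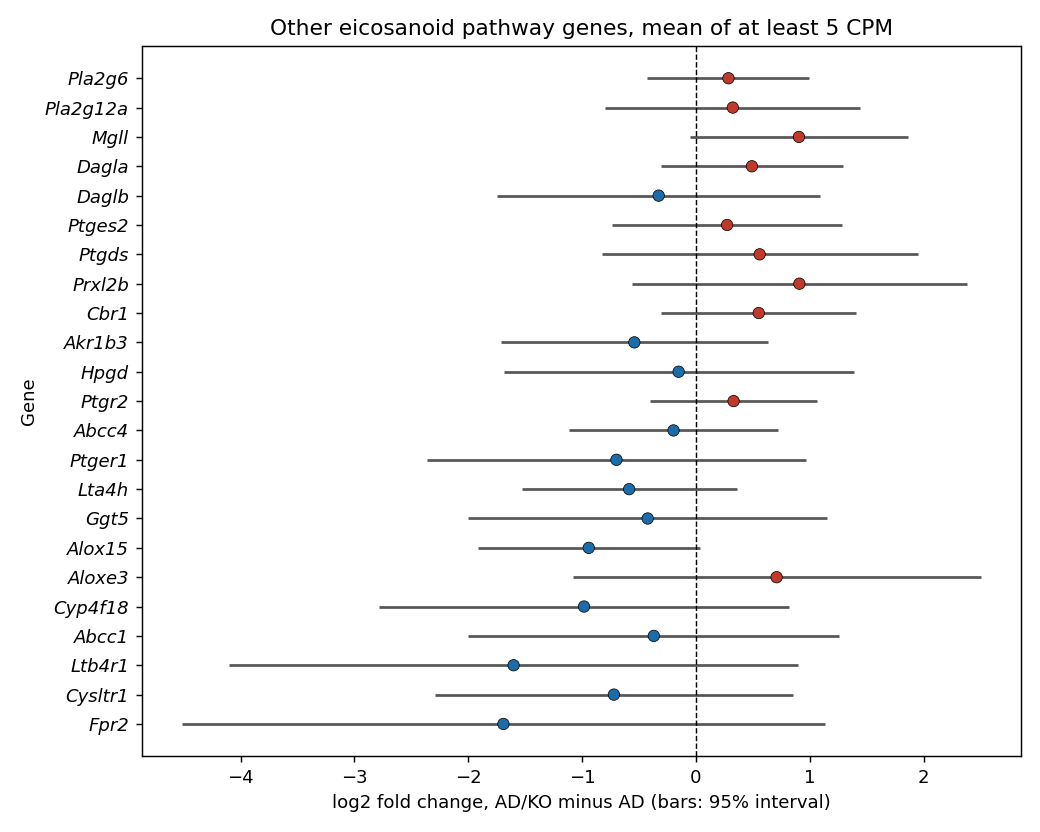
Log2 fold change between AD/KO and AD (points) with its 95% interval (bars) for the 23 other pathway genes with a mean of at least 5 CPM, lower in blue and higher in red. Each interval reaches 0, with Mgll (0.91) and Alox15 (-0.94) closest to clearing it.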

How the data were processed

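The authors deposited 1 table of raw read counts per gene symbol for each library. Per the submitters' processing notes, the tools included HISAT2, SAMtools, featureCounts and DESeq2 1.30.0, with build mm10, and per the labels' protocols the RNA was depleted of ribosomal RNA and the kit was stranded. Annotation, strand setting and treatment of reads with several matches are not given in the sources used here. Per library, 11 broken lines held no count and were left out, and 49993 genes remained. Genes were kept by filterByExpr (minimum count 10, minimum total 15), scaled by TMM and tested in edgeR 4.0.16 (R 4.3.3) by quasi-likelihood on all 4 libraries without covariates, with Benjamini-Hochberg adjustment over all 21439 genes tested and a threshold of 0.05. Standard errors are the log2 fold change divided by the square root of F, and 95% intervals use the same error. The procedure was tested on simulated data. An exact permutation test of 2 libraries against 2 cannot go below p = 0.333 (two-sided), so none is given. At the smallest depth 10 counts are 0.763 CPM; reads carry no molecular identifiers.

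Gene coordinates and promoters are RefSeq's for GRCm38.p6, the assembly of mm10, and exon lengths and overlaps come from GENCODE M21 on GRCm38, whose exons may differ from those counted. Near-identical transcripts were sought with BLAST 2.17.0 (at least 95% identity over at least 100 bases). The members, the 50 other pathway genes and the 12 marker lists were chosen with earlier results of these data known. Genes named are the members, Ociad1, and pathway genes with a mean of at least 5 CPM or an unadjusted p under 0.05; the homeostatic markers Fcrls and Tmem119, and Ptger3, Slco2a1 and Dpep1, were named after their values were seen. The likeness of patterns used log2 of CPM plus 0.5 for members. Reads per 1000 reads of the 12 homeostatic markers were computed from raw counts. Alternatives were DESeq2 1.42.0 as the test, its size factors in edgeR, no filter, a filter at a mean of 1 CPM, the replicate number as a block, scaling to the homeostatic markers, the neuron and astrocyte level as a covariate, and each library left out with the genes tested kept. Adding Ptges3-ps to Ptges3 and taking each marker alone as the reference were chosen after the data were seen. Mast cell and T and NK cell markers summed to at most 0.369 and 1.23 CPM in any library. Oligodendrocyte markers summed to 1616 and 2570 CPM in AD and 3882 and 8491 CPM in AD/KO. Columns without a sample numbered 0.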

Additional observations from a re-analysis of the deposited data

How the results depend on the processing

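The count of called genes (adjusted p under 0.05, edgeR's quasi-likelihood test) was 0, with 1072 at an unadjusted p under 0.05, and it was 90 with DESeq2, 8 with the neuron and astrocyte level as a covariate and from 0 to 724 with a library left out. The labels do not say that a replicate number marks a shared litter or day. Across genes, same-numbered libraries deviated from their group means with a correlation of 0.68. With the replicate block, in a fit of 3 coefficients on 4 libraries, 4333 genes were called, or 20.2% of all genes. It called 3 members (Hpgds at -0.99, Alox5 at -1.27 and Ptger4 at -1.35, edgeR adjusted p of 0.0377, 0.0110 and 0.0374). In the pathway list the block called 3 of 38 genes, Mgll (0.89, adjusted p = 0.0154), Alox15 (-0.98, adjusted p = 0.0247) and Cysltr1 (-0.84, adjusted p = 0.0341), where edgeR without it called 0. With 1 library left out the median of the members ran from -1.66 to 0.0065, the number of members lower from 5 to 9, the number called stayed 0, and the median of the pathway list ran from -0.47 to 0.14. The member values then ran from -1.67 to 0.13 for Ptgs1, -1.65 to 0.13 for Alox5ap, -1.10 to 0.63 for Ltc4s and -0.20 to 0.24 for Ptges3. With the covariate, also in a fit of 3 coefficients on 4 libraries, the median of the members was 0.074 and 4 were lower. Pla2g4a (0.21), Ptgs1 (0.39), Hpgds (0.14), Tbxas1 (0.0025) and Ltc4s (0.98) changed sign, while Alox5 was at -0.82 and Ptger4 at -1.61. Scaling to the homeostatic markers moved the median of all genes to 0.73 and that of the pathway list to 0.49, Ptges3 to 0.71, Ltc4s to 0.37, Alox5 to -0.64 and Ptger4 to -0.46. Ptges3 was then level with the median of all genes, Ptgs2 above it and the other members below it. In the main fit Ptges3 (-0.026) and Ltc4s (-0.0042) were not below that median (-0.048). Ptges3 was at 0.019 and Ltc4s at 0.017 both with DESeq2 and with its size factors, and Ptges3 was at 0.094 with its pseudogene added. The causes were not tested. Alox5, Ptger4 and Ptgs2 kept their direction in all 11 alternatives planned. Their groups did not overlap in CPM, so the fits with a library left out could hardly have changed it. At 8 to 40 reads, depth limits Ptgs2 most.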

Other observations

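In the low range of the pathway, Ptger3 and Slco2a1 differed more between replicate numbers than between genotypes. This was not particular to them. Aloxe3 did so too, with 2.32 and 4.74 CPM in replicates 1 and 6.39 and 9.55 CPM in replicates 2 of AD and AD/KO, as did the member Ptgs1. Ptger3, Slco2a1 and Dpep1 were chosen after their values were seen. Ptger3, a prostaglandin E2 receptor, was at 4.86 CPM in AD replicate 1 and 6.15 CPM in AD/KO replicate 1, but at 0.369 and 1.57 CPM in replicates 2 of AD and AD/KO. Slco2a1, the prostaglandin transporter, ran the other way, with 1.09 and 2.66 CPM in replicates 1 and 5.35 and 9.12 CPM in replicates 2 of AD and AD/KO. Of the 12 pathway genes that were not tested for want of reads, Dpep1, which trims leukotriene C4 further, had 0 reads in all 4 libraries.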
